A study of Zea mays subsp. mays with 11 samples.

Results

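B73_24PHAS_26207, B73_24PHAS_26386 and B73_24PHAS_26392 are 3 loci of distal maize chromosome 4. In most groups their phased small RNAs were many times higher in some libraries than in others of the same group. The levels of B73_24PHAS_26207 and B73_24PHAS_26386 were low for their class in every library. These 3 loci were chosen by name from the 659 PHAS loci of the deposited table because their values varied strongly between replicate libraries. That spread is therefore given as a description, without a test. B73_24PHAS_26207 belongs to the premeiotic 24-PHAS loci, 75 in the table, and the other 2 to the meiotic 24-PHAS loci, 154 in the table, by the annotation of the study.

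PHAS loci are long noncoding loci that are transcribed by RNA polymerase II in developing anthers. Their precursors are made double-stranded and diced at regular steps into phased small interfering RNAs (phasiRNAs), which are then bound by Argonaute (AGO) proteins. In grasses the Dicer-like protein DCL5 releases the 24-nt class, and the microRNA miR2275 is the known trigger that cuts precursors of its meiotic loci, whereas the study regards the premeiotic 24-nt class as probably independent of a microRNA. AGO18 is an Argonaute found in grasses that is expressed in anthers and binds phasiRNAs.

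The libraries were made with TraPR, an ion exchange method that isolates small RNAs bound to AGO proteins, from whole anthers of 2 mm or 5 mm in length. Triple homozygous ago18 mutants (ago18HM) were compared with their triple heterozygous siblings (ago18HT). The ago18a and ago18b alleles are single-base deletions made with CRISPR-Cas9 that shift the reading frame, and the ago18c allele carries a Mu transposon in its coding sequence. No library of wild-type siblings was analysed here, so that every plant carried at least 1 mutant copy of each gene. At 2 mm there were 3 libraries of ago18HT and 2 of ago18HM, and at 5 mm 3 of each genotype, derived from distinct plants. Their genotype was labeled as mostly B73, free of the editing transgene, and which segments of the genome were not B73 was not given in the sources used here. Values are CPM, reads of a locus relative to the library size that the authors used, and reads were recovered from the smallest step between CPM values in a library. The CPM denominators ran from 33076189 to 53038060 reads at 2 mm and from 5419067 to 17805878 reads at 5 mm, so that 3 reads, the limit that a count of 0 allows, stood for 0.0566 to 0.554 CPM. Intervals and limits cover counting error only. In whole anthers, fewer producing cells and less RNA per cell cannot be told apart.

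The most abundant phasiRNA that the study lists at each of these loci is called its major RNA. The values here count reads assigned to a whole locus, and the share of its major RNA in them was not examined. B73_24PHAS_26391, the PHAS locus that lies between B73_24PHAS_26386 and B73_24PHAS_26392, is given for contrast. The sequences are those that the study lists for B73. The capital marks the 5′ base, which in plants is a main feature by which AGO proteins select small RNAs.
B73_24PHAS_26207: Acuaguuauuguuguaaggcucuc
B73_24PHAS_26386: Aggcuauuuucgucggccaccacg
B73_24PHAS_26392: Acaguuucauagggcacuucgagc
B73_24PHAS_26391: Auuaucgaauuugguggugaaguc
All 4 were 24 nt long and began with A, as did 74 of the 75 premeiotic and 144 of the 154 meiotic major RNAs. The 3 on-off loci did not share a sequence by this measure. Aligned without gaps, their major RNAs matched each other at 6 to 9 of 24 positions, and the closest other 24-nt major RNA of the table had 10, 11 and 12 mismatches to them, in the order listed. Reads that map to several positions were included in the counts, so that a locus can also hold reads made elsewhere.

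The same major RNA was looked up among the PHAS loci that the study lists for 4 other maize inbred lines (HP301, Il14H, NC358 and Oh43) and the teosinte TIL11. That of B73_24PHAS_26391 was listed in all 5, as was the case for only 5 of the 154 meiotic loci. That of B73_24PHAS_26386 was listed in HP301 and Oh43, and those of B73_24PHAS_26207 and B73_24PHAS_26392 in none. In comparison, 42.7% of the premeiotic and 81.2% of the meiotic loci had an identical major RNA in at least 1 of the 5. A major RNA can differ between lines where the locus is present, so these counts do not say whether the locus itself is missing.

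The 3 loci lie within 4701429 bp of chromosome 4 (B73 RefGen_v5). B73_24PHAS_26207 is at chr4:235441909-235444871 on the minus strand and is 2963 bp long, near the premeiotic median of 2981 bp. B73_24PHAS_26386 is at chr4:240059416-240059938, with no strand assigned, and its 523 bp are fewer than the meiotic median of 1275.5 bp. B73_24PHAS_26392 is at chr4:240142000-240143337 on the plus strand and is 1338 bp long. None overlapped a RefSeq gene. The nearest were LOC100277474, protein-coding, at 8286 bp from B73_24PHAS_26207, the pseudogene LOC111591347 at 26140 bp from B73_24PHAS_26386, and LOC103655990, protein-coding, at 28925 bp from B73_24PHAS_26392. The block is not unbroken, since 2 further PHAS loci lie inside it. B73_24PHAS_26294 is located between B73_24PHAS_26207 and B73_24PHAS_26386, and B73_24PHAS_26391 (chr4:240095334-240096341, minus strand, overlapping the lncRNA gene LOC103654818) is located 45659 bp before B73_24PHAS_26392.

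B73_24PHAS_26392 gave the most phasiRNA reads of the 3 loci in every library and, over all 11 libraries, spanned the widest range on the log2(CPM + 1) scale. In ago18HT-2mm it had 1.62 CPM (71 reads) in replicate 1, but 767 CPM (25358 reads) in replicate 2 and 575 CPM (20460 reads) in replicate 3. In ago18HM-2mm it had 0.490 CPM (26 reads) in replicate 1 and 86.3 CPM (3184 reads) in replicate 2. Replicate 1 was thus the low library in both genotypes at 2 mm. In ago18HT-5mm it had 876, 677 and 10.04 CPM (5563, 6568 and 75 reads) in replicates 1 to 3, and here replicate 3 was the low one. In ago18HM-5mm it had 10.7, 11.4 and 35.4 CPM (191, 62 and 236 reads), a narrower range with the highest value in replicate 3. The highest library exceeded the lowest 472-fold in ago18HT-2mm, 176-fold in ago18HM-2mm, 87.2-fold in ago18HT-5mm and 3.30-fold in ago18HM-5mm. On the log2(CPM + 1) scale its range was 8.19, 5.87, 6.31 and 1.63 in the same order of groups. Among the other 152 meiotic loci, the range on this scale was 1.10, 0.62, 0.55 and 0.71 at the median.

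B73_24PHAS_26386 is a short locus, and 83922 bp run from its start to the end of B73_24PHAS_26392. It followed the same libraries at a lower level. In detail, it had 0.183, 29.7 and 17.9 CPM (8, 981 and 637 reads) in ago18HT-2mm replicates 1 to 3. In ago18HM-2mm it had 0.132 and 4.83 CPM (7 and 178 reads). In ago18HT-5mm it had 64.8, 39.5 and 1.87 CPM (412, 383 and 14 reads). The low libraries were again replicate 1 of each 2 mm group and replicate 3 of ago18HT-5mm. In ago18HM-5mm it had 2.41, 2.21 and 7.04 CPM (43, 12 and 47 reads), once more highest in replicate 3. The ratios of the highest to the lowest library were 162, 36.6, 34.6 and 3.18 in the same order of groups, with 95% counting intervals of 81.9 to 376, 17.4 to 92.3, 20.4 to 63.9 and 1.66 to 6.58.

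B73_24PHAS_26207, the premeiotic locus, had the lowest mean of the 3 over all 11 libraries (6.61 CPM, against 15.5 CPM at B73_24PHAS_26386 and 277 CPM at B73_24PHAS_26392) and was the only one with counts of 0. In ago18HM-2mm, however, its mean of 9.36 CPM was above the 2.48 CPM of B73_24PHAS_26386. In ago18HT-2mm it had 0 reads in replicate 1, which allows up to 0.0686 CPM, and 10.7 and 13.2 CPM (355 and 470 reads) in replicates 2 and 3. In ago18HM-2mm it had 0.0377 CPM in replicate 1, from 2 reads (95% exact Poisson interval 0.00457 to 0.136 CPM), and 18.7 CPM (689 reads) in replicate 2. In ago18HT-5mm it had 8.03 and 12.6 CPM (51 and 122 reads) in replicates 1 and 2 and 0 reads in replicate 3, which allows up to 0.401 CPM. The low libraries were therefore those of the meiotic loci. In ago18HM-5mm it had 0.730, 0.369 and 8.39 CPM (13, 2 and 56 reads). Against the 3-read limit of a single library, the highest value was at least 192-fold higher than replicate 1 in ago18HT-2mm and at least 31.3-fold higher than replicate 3 in ago18HT-5mm. The 95% exact Poisson interval for 0 reads reaches higher, to 0.0844 and 0.494 CPM in these libraries, which would lower both bounds. In ago18HM-2mm the ratio of the highest to the lowest library was 495 (95% counting interval 137 to 4098), and in ago18HM-5mm it was 22.7 (6.01 to 192). Both were above the ratios of the meiotic loci but rest on 2 reads in the lowest library. The first interval includes the 176 of B73_24PHAS_26392. On the log2(CPM + 1) scale the range in ago18HM-2mm was the smaller one, 4.25 against 5.87 at B73_24PHAS_26392.

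**Figure D1:**
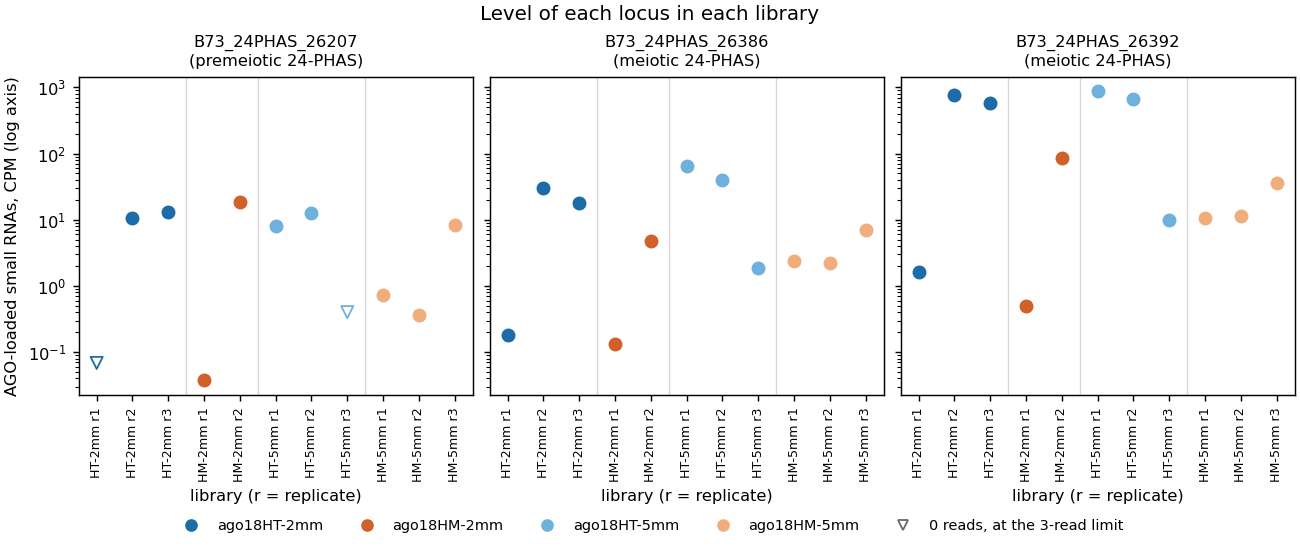
CPM of each locus in the 11 libraries, on a log axis shared by the 3 panels. Each point is 1 library, colored by group, and open triangles stand at the limit that a count of 0 allows; ago18HT-2mm replicate 1, ago18HM-2mm replicate 1 and ago18HT-5mm replicate 3 are the lowest of their groups in every panel, and replicate 3 is the highest of ago18HM-5mm in every panel.

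Outside ago18HM-5mm, the libraries of low values were not the shallowest of their groups. The CPM denominators of ago18HT-2mm replicate 1 (43704102 reads) and ago18HM-2mm replicate 1 (53038060 reads) were the largest of their groups, and that of ago18HT-5mm replicate 3 (7472905 reads) was between those of the other 2 libraries. In ago18HM-5mm, by contrast, replicate 2 was the lowest library at B73_24PHAS_26207 and B73_24PHAS_26386 and had the smallest denominator of all 11 libraries (5419067 reads). The part of depth in these values was not tested. In the former 3 libraries the meiotic sums were also the lowest of their groups. All meiotic 24-PHAS loci summed to 117705 CPM in ago18HT-2mm replicate 1 against 206990 to 237337 CPM in replicates 2 and 3, to 26351 against 41553 CPM in ago18HM-2mm, and to 219707 against 249651 to 266871 CPM in ago18HT-5mm. In ago18HM-5mm the order was the opposite, since replicate 3, with the highest value at each of the 3 loci, had the lowest meiotic sum (11068 against 16420 and 16838 CPM). The part of these sums in the result was not tested. As a share of its class, B73_24PHAS_26392 made up 0.00138% of the meiotic CPM in ago18HT-2mm replicate 1 and 0.323% and 0.278% in replicates 2 and 3. It ranked 148 of 154 meiotic loci in the first and 81 and 87 in the other libraries. The best rank of B73_24PHAS_26386 in any library was 121 of 154 (ago18HM-5mm replicate 3). That of B73_24PHAS_26207 was 63 of 75 premeiotic loci (ago18HM-2mm replicate 2). The premeiotic sum did not stand in one relation to B73_24PHAS_26207. It was highest where the locus was lowest in ago18HT-2mm, with 25306 CPM in replicate 1 and 9651 and 11076 CPM in replicates 2 and 3. In ago18HM-2mm it was lower in replicate 1, the low library (8181 against 9370 CPM), and in ago18HT-5mm it was lowest in replicate 3, again the low library (7862 against 8520 and 8765 CPM). In ago18HM-5mm it was lowest in replicate 3, where the locus was highest (6321 against 10542 and 8569 CPM).

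Within groups, the 3 loci deviated together. Deviations of log2(CPM + 1) from the group mean had a Pearson correlation over the 11 libraries of 0.98 between B73_24PHAS_26386 and B73_24PHAS_26392, of 0.94 between B73_24PHAS_26207 and B73_24PHAS_26392, and of 0.92 between B73_24PHAS_26207 and B73_24PHAS_26386. The libraries are shared by all loci and the loci were chosen for this pattern, so these values are descriptions. The joint pattern was not a fixed ratio. B73_24PHAS_26386 had 3.11% to 7.41% of the CPM of B73_24PHAS_26392 in ago18HT-2mm replicates 2 and 3, ago18HM-2mm replicate 2 and ago18HT-5mm replicates 1 and 2. In the remaining 6 libraries it had 11.3% to 26.9%, with 7 to 47 reads behind the numerator. On the log2 scale the difference between these loci was therefore smaller in the libraries where B73_24PHAS_26392 was at 35.4 CPM or below. These included all of ago18HM-5mm, at 22.5%, 19.4% and 19.9% in replicates 1 to 3, although replicate 3 was the highest of that group.

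The pooled within-group SD of log2(CPM + 1) was 3.52 at B73_24PHAS_26392, 2.10 at B73_24PHAS_26207 and 2.02 at B73_24PHAS_26386. They ranked 2, 13 and 16 of 659 loci. The median SD was 0.47 over the meiotic, 0.62 over the premeiotic and 0.24 over the 21-PHAS loci. B73_24PHAS_26386 was the last of 16 loci with an SD above 2, and the next one, B73_21PHAS_7642, had 1.92. With a pseudocount of 5 in place of 1, the SD was 1.03 at B73_24PHAS_26207 and 1.27 at B73_24PHAS_26386, and with 0.1 it was 3.71 at B73_24PHAS_26207, as the value added sets how far a count near 0 lies from the rest. The other 13 loci above 2 did not follow the 3 loci. Their deviations correlated with those of B73_24PHAS_26392 at -0.77 to 0.15 (median -0.04), with those of B73_24PHAS_26207 at -0.69 to 0.14 and with those of B73_24PHAS_26386 at -0.75 to 0.00025. The lowest of these was at B73_21PHAS_22895 for each of the 3 loci.

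**Figure D2:**
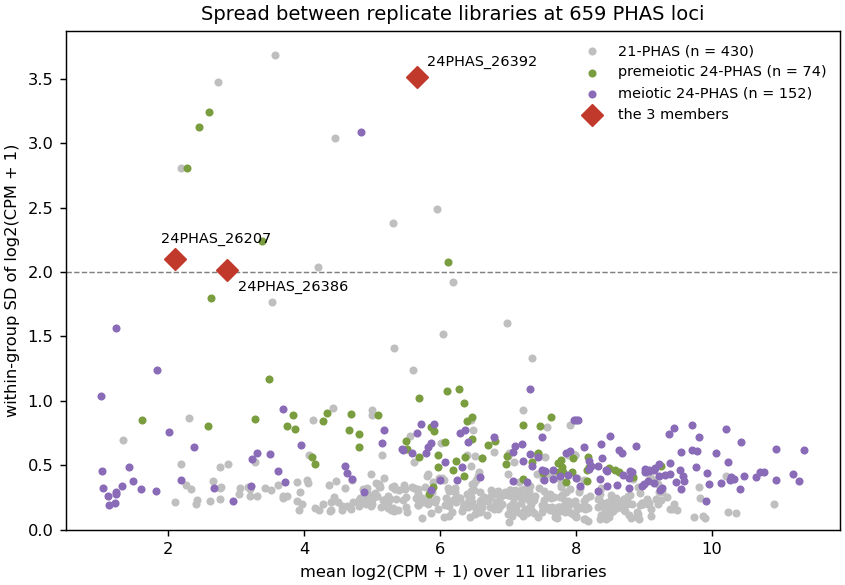
Pooled within-group SD of log2(CPM + 1) against the mean over 11 libraries, each point 1 of 659 loci, colored by class. The 3 loci (diamonds) lie above the dashed line at 2, with B73_24PHAS_26392 at 3.52, while the class medians are between 0.24 and 0.62.

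Other PHAS loci of the same chromosome arm differed in how far they followed this pattern, and 6 were described whether or not they did: all those of the table past 200 Mb of chromosome 4. The closest in behavior was B73_24PHAS_26178, a premeiotic locus 919821 bp before B73_24PHAS_26207. It had 80.8, 159 and 189 CPM in ago18HT-2mm, 25.4 and 150 CPM in ago18HM-2mm, 123, 156 and 34.0 CPM in ago18HT-5mm and 25.3, 38.8 and 88.2 CPM in ago18HM-5mm, in order of replicates. Outside ago18HM-5mm the low libraries were the same, with a higher floor: no library was below 25.3 CPM. Its deviations correlated with those of B73_24PHAS_26207 at 0.95, the highest of 656 other loci, with those of B73_24PHAS_26392 at 0.85 and with those of B73_24PHAS_26386 at 0.82.

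The 2 loci inside the block varied far less in the ago18HT groups and in ago18HM-2mm, although the order of their libraries was in part the same. B73_24PHAS_26294, premeiotic, had 586, 217 and 240 CPM in ago18HT-2mm, 225 and 245 CPM in ago18HM-2mm, 207, 183 and 118 CPM in ago18HT-5mm and 211, 180 and 214 CPM in ago18HM-5mm. Its highest value was in ago18HT-2mm replicate 1, where B73_24PHAS_26207 had 0 reads. In the other 3 groups its order was like that of the 3 loci, as it was lowest in ago18HM-2mm replicate 1 and ago18HT-5mm replicate 3 and highest, by a small margin, in ago18HM-5mm replicate 3. Its deviations correlated at -0.32 to -0.17 with the 3 loci. B73_24PHAS_26391, meiotic, had 1452, 2423 and 2169 CPM in ago18HT-2mm, 199.5 and 417 CPM in ago18HM-2mm, 4361, 3126 and 2088 CPM in ago18HT-5mm and 362, 165 and 124 CPM in ago18HM-5mm. The same libraries as at the 3 loci were lowest in the first 3 groups, the highest was at most 2.93 times the lowest within a group, and correlations with the 3 loci were 0.45 to 0.59. The remaining 3, B73_24PHAS_25686, B73_24PHAS_25860 and B73_24PHAS_26095, correlated with the 3 loci at -0.52 to 0.57.

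**Figure D3:**
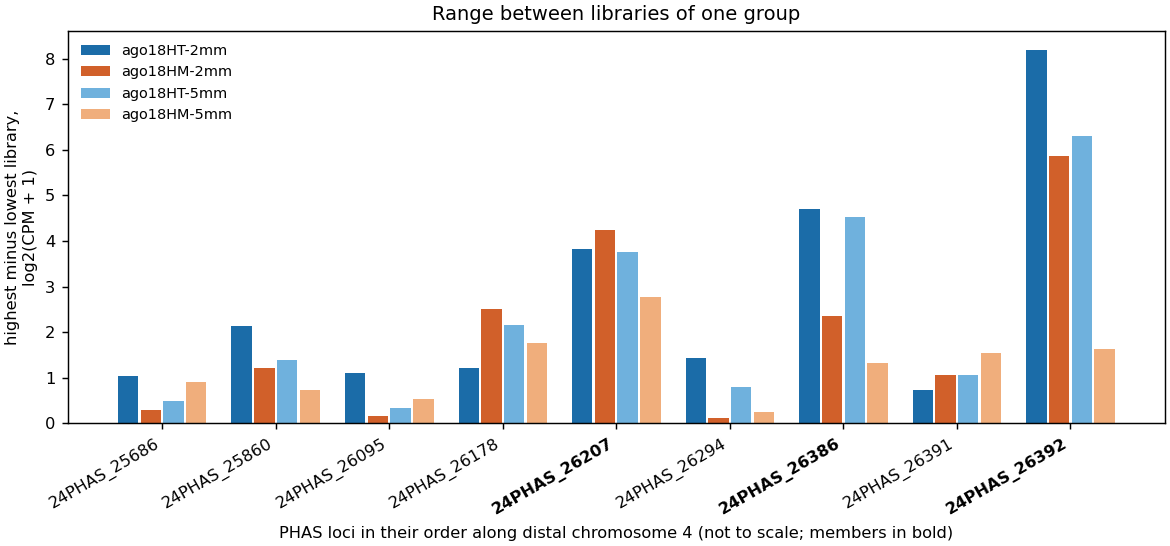
Difference between the highest and the lowest library of a group on log2(CPM + 1), for the 9 PHAS loci past 200 Mb of chromosome 4 in their order along the chromosome (spacing not to scale), with a bar for each of the 4 groups. B73_24PHAS_26207, B73_24PHAS_26386 and B73_24PHAS_26392 (bold) have the tallest bars in ago18HT-2mm and ago18HT-5mm, but not in every group: B73_24PHAS_26178 (2.52) exceeds B73_24PHAS_26386 (2.36) in ago18HM-2mm, and in ago18HM-5mm B73_24PHAS_26178 (1.76) exceeds B73_24PHAS_26392 (1.63), and B73_24PHAS_26391 (1.54) exceeds B73_24PHAS_26386 (1.32).

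Each locus was also divided by a nearby locus of its class in the same library. B73_24PHAS_26392 had 0.112%, 31.6% and 26.5% of the CPM of B73_24PHAS_26391 in ago18HT-2mm replicates 1 to 3, and 0.246% and 20.7% in ago18HM-2mm replicates 1 and 2. At 5 mm it had 20.1%, 21.6% and 0.481% in ago18HT, and 2.96%, 6.95% and 28.6% in ago18HM. The libraries that were low by CPM in the first 3 groups were low by this share too, and the ranges of ago18HM and ago18HT overlapped. In 6 of the 11 libraries, found in all 4 groups, the share was between 20.1% and 31.6%. In the other 5 it was between 0.112% and 6.95%. In ago18HM-5mm the range widened from 3.30-fold for CPM to 2.96% against 28.6% for the share, as the divisor was lowest, at 124 CPM, in the replicate where B73_24PHAS_26392 was highest.

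B73_24PHAS_26386, divided by the same neighbor, did not separate these 6 libraries from the other 5. It had 0.0126%, 1.22% and 0.825% of the CPM of B73_24PHAS_26391 in ago18HT-2mm, 0.0662% and 1.16% in ago18HM-2mm, 1.49%, 1.26% and 0.0897% in ago18HT-5mm and 0.667%, 1.35% and 5.69% in ago18HM-5mm. The same libraries were lowest in the first 3 groups. However, ago18HM-5mm replicate 2, with 12 reads of the locus, ranked 3 of 11, above 4 of the 6 libraries.

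For the premeiotic locus, division by B73_24PHAS_26294 split the libraries as at B73_24PHAS_26392, although their order differed. B73_24PHAS_26207 had 0%, 4.95% and 5.51% of the CPM of B73_24PHAS_26294 in ago18HT-2mm, 0.0167% and 7.62% in ago18HM-2mm, 3.88%, 6.88% and 0% in ago18HT-5mm and 0.346%, 0.205% and 3.92% in ago18HM-5mm. The same 6 libraries were between 3.88% and 7.62%, and the other 5 were at 0.346% or below. B73_24PHAS_26178 had 41.2% to 85.6% of B73_24PHAS_26294 in those 6 libraries and 11.3% to 28.8% in the other 5, so that its 2 ranges lay far closer to each other. These 6 and 5 libraries are read off the values and are not groups of the study.

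**Figure D4:**
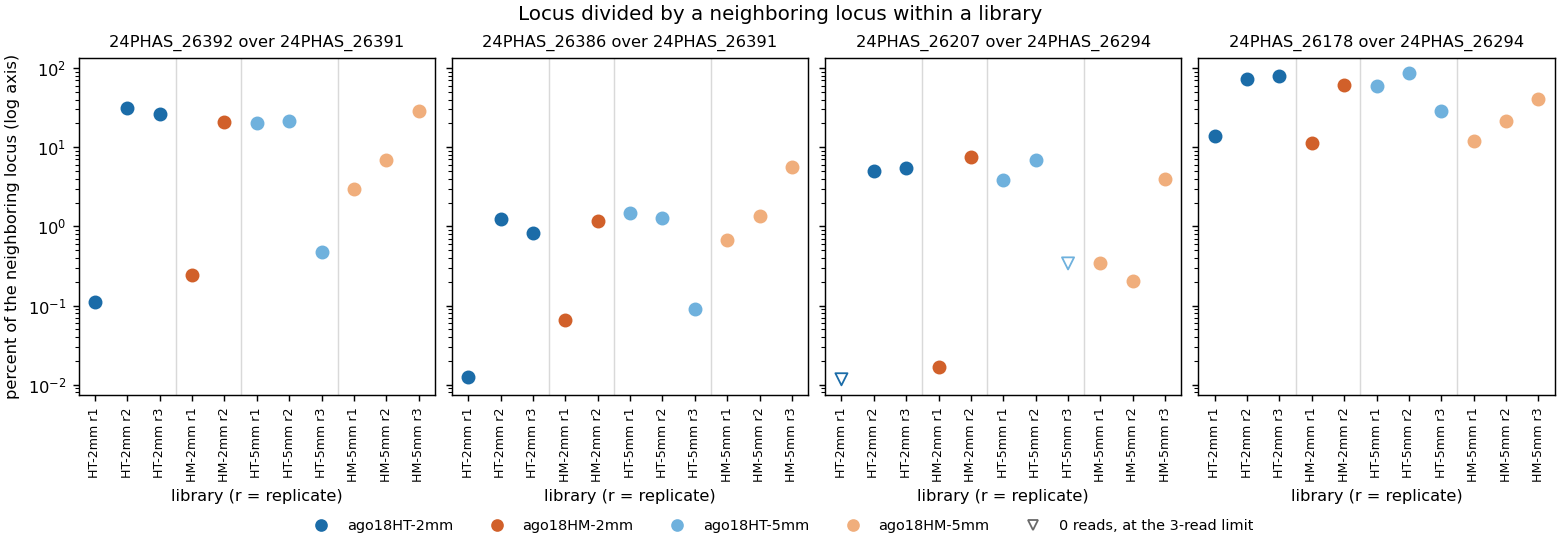
CPM of B73_24PHAS_26392, B73_24PHAS_26386, B73_24PHAS_26207 and B73_24PHAS_26178 as a percent of a neighboring locus in the same library (log axis), each point 1 library, colored by group, with open triangles at the limit of 3 reads. The same 6 libraries are highest for B73_24PHAS_26392 (20.1% to 31.6%), B73_24PHAS_26207 (3.88% to 7.62%) and B73_24PHAS_26178 (41.2% to 85.6%), but not for B73_24PHAS_26386, where ago18HM-5mm replicate 2 (1.35%) lies above 4 of them.

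Outside chromosome 4, the loci most like the 3 by correlation of deviations were the following, taken as the 3 highest for each locus over the 11 libraries. They were B73_24PHAS_4206 (0.95 with B73_24PHAS_26392), B73_24PHAS_35587 (0.95) and B73_24PHAS_4282 (0.91), all meiotic, B73_24PHAS_7023, meiotic (0.94 with B73_24PHAS_26386), and B73_21PHAS_11734 (0.88 with B73_24PHAS_26207). A high correlation did not mean a similar size. B73_24PHAS_4206, on chromosome 1, had 100.1, 402 and 339 CPM in ago18HT-2mm, so that its highest library was about 4 times its lowest, against 472-fold at B73_24PHAS_26392. B73_21PHAS_11734, on chromosome 2, had 106, 158 and 168 CPM in the same libraries.

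Of these loci, B73_24PHAS_7023 had the widest spread, with a within-group SD of 1.04 against 2.02 to 3.52 at the 3 loci. This meiotic locus of chromosome 1 (chr1:272659235-272659370) had 0.0458, 6.14 and 4.52 CPM (2, 203 and 161 reads) in ago18HT-2mm and 0 and 0.163 CPM (0 and 6 reads) in ago18HM-2mm. At 5 mm it had 4.09, 3.30 and 0.134 CPM (26, 32 and 1 reads) in ago18HT and 0.449, 0 and 0.300 CPM (8, 0 and 2 reads) in ago18HM. It was low in the same ago18HT libraries as the 3 loci of chromosome 4, but in ago18HM-5mm it was highest in replicate 1, not in replicate 3. Its CPM relative to B73_24PHAS_26392 was 0.80% and 0.79% in ago18HT-2mm replicates 2 and 3. In ago18HT-5mm replicates 1 and 2 this share was 0.47% and 0.49%. The share was not constant over the libraries. It was 0.19% in ago18HM-2mm replicate 2 (6 reads). It was 2.82% in ago18HT-2mm replicate 1 (2 reads) and 1.33% in ago18HT-5mm replicate 3 (1 read). In ago18HM-5mm it was 4.19% in replicate 1 (8 reads) and 0.85% in replicate 3 (2 reads). With 0 reads of B73_24PHAS_7023, it was 0% in ago18HM-2mm replicate 1 and ago18HM-5mm replicate 2. Whether B73_24PHAS_7023 shares reads with a locus of chromosome 4 was not tested.

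The comparison for which the study made these libraries is that of ago18HM with ago18HT, which asks how far AGO-bound phasiRNAs depend on AGO18. None of the 3 loci was called in it at either length. Log2(CPM + 1) was fitted with limma over all 659 loci and 11 libraries, and calls needed a fold change above 1.5 and a Benjamini-Hochberg adjusted p below 0.05. At 2 mm 0 of 3 were called, where 19.0% of all loci were called and 17.0% were lower in ago18HM. At 5 mm 0 of 3 were called, where 23.7% of all loci were called and 21.1% were lower. By voom on the recovered reads 0 were called as well, and 0 had an unadjusted limma p below 0.05. The loci were chosen for the spread that sets their SE, so the wide intervals follow from the choice, and a missed threshold does not show that the genotypes were alike.

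At 2 mm the meiotic B73_24PHAS_26392 averaged 448 ± 398 CPM (SD, n = 3) in the heterozygous and 43.4 ± 60.7 CPM (SD, n = 2) in the homozygous plants. Its log2 difference was -3.20 (SE 2.79, 95% interval -9.50 to 3.09, limma adjusted p = 0.498). At 5 mm the averages were 521 ± 453 CPM (SD, n = 3) for the heterozygous and 19.2 ± 14.0 CPM (SD, n = 3) for the homozygous plants, with a log2 difference of -3.42 (SE 2.5, interval -9.05 to 2.20, limma adjusted p = 0.414). The groups overlapped at both lengths. At B73_24PHAS_26386 the log2 difference was -1.78 at 2 mm (SE 1.61, interval -5.41 to 1.85) and -2.15 at 5 mm (SE 1.44, interval -5.39 to 1.10), with limma adjusted p-values of 0.519 and 0.377. The premeiotic B73_24PHAS_26207 had log2 differences of -0.28 (SE 1.68, interval -4.06 to 3.50) and -0.82 (SE 1.5, interval -4.20 to 2.56), with limma adjusted p-values of 0.929 and 0.783. Without ago18HM-2mm replicate 1 its 2 mm difference was 1.84, and without ago18HM-2mm replicate 2 it was -2.41, so 1 library decided the sign.

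The SE of B73_24PHAS_26392 was the largest of the 154 meiotic loci in both comparisons, and that of B73_24PHAS_26386 was exceeded at 2 of them. Over the other 152 meiotic loci the median log2 difference was -1.99 at 2 mm and -4.06 at 5 mm, the median SE was 0.39 and 0.35, and 108 and 130 were called lower. Over all loci the median log2 difference was -0.02 at 2 mm and 0.01 at 5 mm. Over the other 74 premeiotic loci the medians were -0.46 and 0.24, and 2 and 1 were called lower. The meiotic neighbor B73_24PHAS_26391 was called at both lengths, at -2.77 at 2 mm (limma adjusted p = 0.00372, SE 0.51) and -3.96 at 5 mm (limma adjusted p = 6.41e-05, SE 0.45). So was B73_24PHAS_25686, at -2.02 at 2 mm (limma adjusted p = 0.00274, SE 0.35) and -3.87 at 5 mm (limma adjusted p = 5.71e-06, SE 0.31). At 2 mm the call at B73_24PHAS_26391 rested on ago18HM-2mm replicate 1, without which the limma adjusted p was 0.0545. None of the 4 premeiotic neighbors was called at either length.

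**Figure D5:**
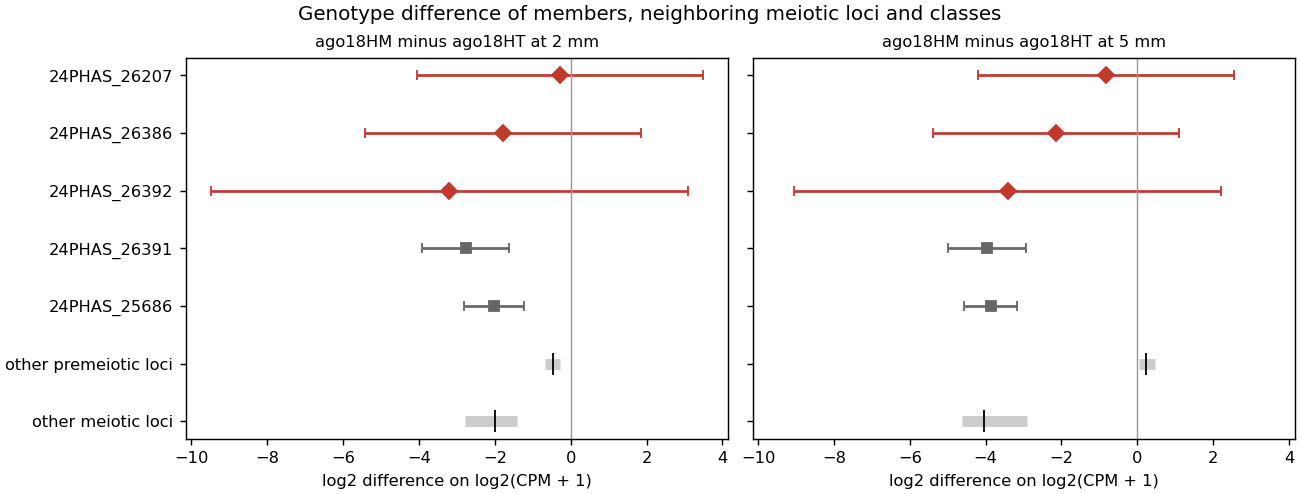
Log2 difference between ago18HM and ago18HT on log2(CPM + 1) at 2 mm (left) and 5 mm (right). Diamonds are the 3 loci and squares 2 meiotic neighbors, with 95% intervals from limma; gray bars span the quartiles of the other loci of each class, with their median as a tick. The intervals of the 3 loci include 0 in both panels, and those of the meiotic neighbors do not.

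Neither the genotype by length interaction nor the change with anther length was called at any of the 3 loci. For the interaction, 0 of 3 were called (8.19% of all loci), with terms of -0.54, -0.37 and -0.22 and SEs of 2.25, 2.16 and 3.75 for B73_24PHAS_26207, B73_24PHAS_26386 and B73_24PHAS_26392. From 2 mm to 5 mm 0 of 3 were called in ago18HT (12.6% of all loci) and 0 of 3 in ago18HM (24.1%). For each of these 3 comparisons 0 had an unadjusted limma p below 0.05 and 0 were called by voom. In ago18HT the log2 differences were -0.15, 1.16 and 0.83 (SE 1.5, 1.44 and 2.5), and in ago18HM they were -0.68, 0.79 and 0.61 (SE 1.68, 1.61 and 2.79), in the same order of loci. All were smaller than their SE. Depth differed between the lengths and cannot be told apart from anther length here.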

How the data were processed

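TraPR small RNA libraries of 11 anther samples were analyzed as 4 groups given by the sample titles. Per the methods of the study and its processing notes, reads were mapped to B73 RefGen_v5 with Bowtie 1.3.1, counted over PHAS loci with featureCounts 1.6.3, multimapping reads included, and the deposited CPM were made by the authors with edgeR 4.0.2. The size range of counted reads was not given in the sources used here. Of 11 value columns, 0 were left without a sample, and 6 of 7249 values were 0. Each value was a whole multiple of the step of its library within 0.001 reads, but each library had only 5 to 35 values of 1 to 20 reads, so the step rests on higher values as well. Class, position and major RNA came from the annotation of the study, without abundances; gene positions came from RefSeq on the same build.

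In R 4.3.3, limma 3.58.1 (robust fits with statmod 1.5.0) was fitted to log2(CPM + 1) with 4 group means and eBayes with trend, two-sided, with Benjamini-Hochberg adjustment over the 659 loci, all of which had at least 1 CPM in at least 2 libraries. Fold changes are on this scale, which understates changes of low loci. Replicates came from distinct plants. Named loci were the 3 loci, the 6 others past 200 Mb of chromosome 4 and, for each, the 3 most like it; B73_21PHAS_7642 and B73_21PHAS_22895 were named with their values in view. Members and lists were chosen with earlier results of these data known. The script was tested on simulated data. Count models (edgeR quasi-likelihood, DESeq2) were planned on recovered reads but not run, because the values did not establish them as counts. The read numbers, counting intervals and voom fits given here assume that the recovered reads were counts.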

Additional observations from a re-analysis of the deposited data

Results flagged for a closer look

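The genotype difference of the neighbor B73_24PHAS_25686 differed between anther lengths by the interaction term, -1.85 (SE 0.47, limma adjusted p = 0.0458), so that the mutant fell further short of its siblings in the longer anthers. The call was kept in 6 of 23 alternatives, over which the term ran from -2.09 to -1.56 and the limma adjusted p from 0.0246 to 0.172. Such a term was not particular to this neighbor. Over the 152 meiotic loci outside the 3 loci, this neighbor included, the median term was -1.51 (quartiles -2.25 to -0.54), and 52 were called lower. The cause was not tested.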

How the results depend on the processing

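At the 3 loci 0 of 352 log2 differences under alternatives were called, with a lowest limma adjusted p of 0.106. Both genotype differences at B73_24PHAS_26386 and B73_24PHAS_26392, and that of B73_24PHAS_26207 at 5 mm, stayed below 0 in every alternative run. Omitting the filter changed nothing, as all loci passed. The edgeR and DESeq2 fits were not run, the interaction could not be fitted with only the groups compared, and B73_24PHAS_26207 fell under a mean CPM of 10. For what follows the cause was not tested, except that a stricter threshold cannot give more calls.

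Over all loci, 125 were called for genotype at 2 mm, 156 at 5 mm, 54 for the interaction, and 83 and 159 for length in ago18HT and ago18HM. Centering on 21-PHAS loci gave 26 for the interaction and 105 for length in ago18HM, and median ratio scaling gave 35 for the interaction. These scalings moved the median difference of all loci by -0.16 to 0.17 and 0.04 to 0.12. The share of calls that were higher at 5 mm went from 37.3% to 60.5% and 56.0% in ago18HT, and from 16.4% to 30.5% and 26.4% in ago18HM. Fits of only the groups compared called 64 for genotype at 2 mm and 81 for length in ago18HM. An adjusted p below 0.01 left 12 for the interaction and 39 and 53 for length in ago18HT and ago18HM. Leaving out 1 library gave 69 to 144 for genotype at 2 mm, 13 to 57 for the interaction, and 46 to 105 and 74 to 185 for length in ago18HT and ago18HM.

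Signs turned at differences that were not called, chiefly on leaving out 1 library. At B73_24PHAS_26207 these fits ran from -2.41 to 1.84 for genotype at 2 mm, -2.66 to 1.59 for the interaction, and -1.38 to 1.01 and -2.81 to 1.44 for length in ago18HT and ago18HM. At B73_24PHAS_26386 they ran from -1.76 to 1.08 for the interaction, and -0.29 to 2.55 and -0.39 to 1.98 for length. At B73_24PHAS_26392 they ran from -3.16 to 2.72 for the interaction, and -1.83 to 2.87 and -2.32 to 3.55 for length. With a pseudocount of 0.1 the interaction was 0.051, 0.0083 and 0.21 at the 3 loci in order, and with 5 the length difference of B73_24PHAS_26392 in ago18HM was -0.035. Voom, added after seeing the data, gave an interaction of 0.12 at B73_24PHAS_26386 and 0.31 at B73_24PHAS_26392, and length differences of 0.95 and 0.83 at B73_24PHAS_26207 in ago18HT and ago18HM.

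Pooled over all groups, libraries of equal replicate number were not more alike. Deviations of libraries from different groups correlated at a median of -0.18 over 15 pairs of equal number and 0.10 over 30 others. Of these, 5 and 15 pairs were above 0.1. Pairing within a single length was not tested. With the replicate block 121, 154, 36, 61 and 140 loci were called in the 5 comparisons, 0 of them among the 3 loci.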
